A study of Mus musculus with 4 samples.

Results

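Insulin, insulin-like growth factor 1 (IGF1) and growth hormone act on cartilage through a small set of receptors and adaptor proteins. Here 9 genes of that set were followed in rib chondrocytes of wild type mice and of mice with the histone demethylases Kdm6a and Kdm6b targeted for deletion. The genes were chosen by name: Igf1 (the ligand), Insr, Igf1r and Ghr (the insulin, IGF1 and growth hormone receptors), Irs1, Irs2, Shc1 and Gab1 (adaptors that bind activated receptors) and Socs2 (a feedback inhibitor of growth hormone signalling). Earlier results of these data were known when they were chosen. All 9 were found among the 17575 genes listed in the deposited tables, each as 1 entry and each in all 4 libraries. Chondrocytes, the cells that make cartilage matrix, had been released with collagenase from the ribs of 10-day-old C57/Bl6 mice and plated, and their RNA was sequenced. There were 2 wild type libraries and 2 libraries of mice that carried the transgene Col2Cre(Tg) with both Kdm6a(fl/fl) and Kdm6b(fl/fl), called the knockout here, in which a Cre recombinase driven by a Col2 promoter deletes loxP-flanked (fl) alleles of Kdm6a and Kdm6b in cells of the cartilage lineage. The design text mentions triplicate sequencing, whereas each group has 2 libraries here. The labels do not say whether the wild type mice carried the Cre transgene or the loxP-flanked alleles, whether the mice of a group were pooled, or whether different mice gave the 2 libraries of each group. P-values therefore measure the spread between these libraries, which may be technical.

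Insulin and IGF1 bind receptor tyrosine kinases, which add phosphate to the insulin receptor substrates Irs1 and Irs2. These scaffolds then recruit the lipid kinase PI3K and so lead to AKT, mTOR and the FOXO transcription factors, whereas Shc1 leads to Ras and ERK. Growth hormone binds Ghr, which works through the kinase Jak2 and the STAT5 factors. STAT5 induces Igf1 in liver, and it induces Socs2, whose product limits the same receptor. Mice without Irs1 or Igf1 are small and mice without Socs2 are large, so these genes are known for their part in longitudinal bone growth.

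Irs1 and Irs2 encode related scaffolds with different behaviour in these libraries, so the DNA in front of each start site is shown first. The sequences are the 250 bases before the annotated start in RefSeq on the mouse assembly GRCm38.p6, at chr1:82291440-82291689 for Irs1 and chr8:11008930-11009179 for Irs2, both on the minus strand and read 5′ to 3′ toward the gene. Capitals mark matches to the motifs searched.
Irs1: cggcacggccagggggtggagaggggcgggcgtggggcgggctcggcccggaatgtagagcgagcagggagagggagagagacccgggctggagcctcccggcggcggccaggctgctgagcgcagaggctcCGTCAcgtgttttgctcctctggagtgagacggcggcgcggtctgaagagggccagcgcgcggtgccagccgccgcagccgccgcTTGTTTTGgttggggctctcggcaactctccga
Irs2: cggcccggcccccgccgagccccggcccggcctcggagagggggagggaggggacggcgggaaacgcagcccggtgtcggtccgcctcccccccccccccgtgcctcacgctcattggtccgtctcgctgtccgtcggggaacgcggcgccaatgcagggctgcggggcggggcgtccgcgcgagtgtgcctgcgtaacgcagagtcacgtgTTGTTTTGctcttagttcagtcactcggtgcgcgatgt
Both sequences held the insulin response element CAAAACAA, read on the other strand as TTGTTTTG, at -33 to -26 from the start site in Irs1 and at -38 to -31 in Irs2. The same letters were found in 2.21% of 32851 promoter sequences of this length and in 1 of the 2 Gab1 promoters, at -42 to -35. Of the 7 genes with a promoter in the table, Irs1 alone had the core of the cAMP response element, TGACG, found as CGTCA at -118 to -114 and present in 17.8% of all promoters. The full element TGACGTCA (1.55% of promoters) and the FOXO motif GTAAACA (3.17%) had no match in the 10 promoter sequences of those 7 genes, Insr and Socs2 being named only. The STAT5 motif TTCNNNGAA (7.02% of promoters) matched once, in Gab1. Each motif was searched on both strands, and the core lies within the full element. Both promoters were rich in G and C, with 72.4% in Irs1 and 72.8% in Irs2 against a median of 52.4%, and held 28 and 34 CpG pairs against a median of 6. The 2 promoters were thus alike in base composition and in the insulin response element.

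The libraries held 31178248 to 32332044 estimated counts each, and the 9 genes had from 215 to 4460 counts in a library. Expression is given as CPM, counts relative to the library size as scaled by the TMM method, unless FPKM is named, the deposited value that is also divided by gene length. Kdm6b fell from 125 ± 9.2 to 48.8 ± 3.7 CPM and Kdm6a from 54.8 ± 3.0 to 29.99 ± 2.0 CPM (mean ± SD, n = 2 each), so both targeted transcripts were lower in both knockout libraries, although counts over the whole gene do not measure the deleted part alone. All 12 chondrocyte markers, Col2a1, Acan and Sox9 among them, had at least 10 counts in every library. They summed to 44420 to 45810 CPM in the wild type libraries, against 60720 to 63230 CPM in the knockout libraries. Col2a1 carried this sum, with means of 25190 and 36860 CPM. The test described below called 3.62% of all tested genes as higher and 5.63% as lower. By that test 4 of the 12 markers rose (Col2a1, Col9a1, Col11a1 and Matn3), and Matn1 fell 4.3-fold. The other 7 did not pass, among them Acan (log2 fold change 0.33, edgeR adjusted p = 0.0687) and Sox9 (-0.19). Summed markers of 4 other cell types were lower in both knockout libraries. Of all tested genes taken singly, 30.7% were lower in both knockout libraries. Summed macrophage markers (12 genes) measured 185 to 192 CPM in wild type and 98.9 to 114 CPM in knockout, endothelial markers (8 genes) 110 to 119 and 73.4 to 86.9 CPM, and fibroblast and perichondrial markers (9 genes) 976 to 1401 and 606 to 813 CPM. Erythroid markers (8 genes) lay at 22.8 to 28.1 and 11.0 to 12.2 CPM. Abundant genes carried the macrophage and fibroblast sums: Cd14 fell from a mean of 128 to 68.8 CPM, Dcn from 589 to 282 CPM and Col1a2 from 290 to 128 CPM. Gene by gene, 3 of 8 tested macrophage, 3 of 8 endothelial, 3 of 5 tested erythroid and 2 of 9 fibroblast markers fell by the same test. None of them rose, and over all tested genes 5.63% fell and 3.62% rose. The median log2 fold change was -0.50, -0.48, -1.10 and -0.03 in these lists, and Adgre1, Cd163, Alas2, Col3a1, Postn and Dpt had values above 0. Osteoblast, adipocyte and skeletal muscle markers overlapped between the groups in their sums. Col1a1 carried the osteoblast sum, with 96.2 and 138 CPM in wild type libraries against 63.0 and 101.5 CPM in knockout libraries. The 8 osteoblast markers all had log2 fold changes below 0, with a median of -1.10. Only Bglap, at means of 1.24 and 0.35 CPM, fell by the same test, and none did in DESeq2. The skeletal muscle sum was 29.1 CPM in knockout replicate 2, against 9.85 to 13.85 CPM in the other libraries. No muscle marker passed. Lep, an adipocyte gene, was not listed in the files, and no other marker was at 0 in every library. The part of these cells in the results below was not tested, and in bulk RNA fewer cells of a type and less RNA per cell cannot be told apart.

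Of the 9 genes, Irs1 rose in the knockout, Socs2 and Shc1 fell, and the other 6 did not pass the test. The test was edgeR's quasi-likelihood test with Benjamini-Hochberg adjustment over 13773 genes, and the threshold for a call was an adjusted p of 0.05. Of all tested genes 9.25% passed by that rule (3.62% rose and 5.63% fell), against 1 that rose and 2 that fell of the 9 genes. DESeq2 made the same 3 calls among the 9. Of 17547 genes in that fit it gave 12444 an adjusted p, and it called 13.1% of those 12444 (5.26% rose and 7.8% fell). Later shares over all genes in the DESeq2 fits made here are likewise over the genes given an adjusted p. The log2 fold change, knockout against wild type, had a median of -0.16 over the 9 genes and 0.0044 over all tested genes. In 1 gene both knockout libraries lay above both wild type libraries, in 4 genes (Irs2, Igf1r, Socs2 and Shc1) they lay below, and in 4 the groups overlapped. Such separation is common here, in 61.7% of all tested genes, with 30.9% higher and 30.7% lower in both knockout libraries.

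**Figure D1:**
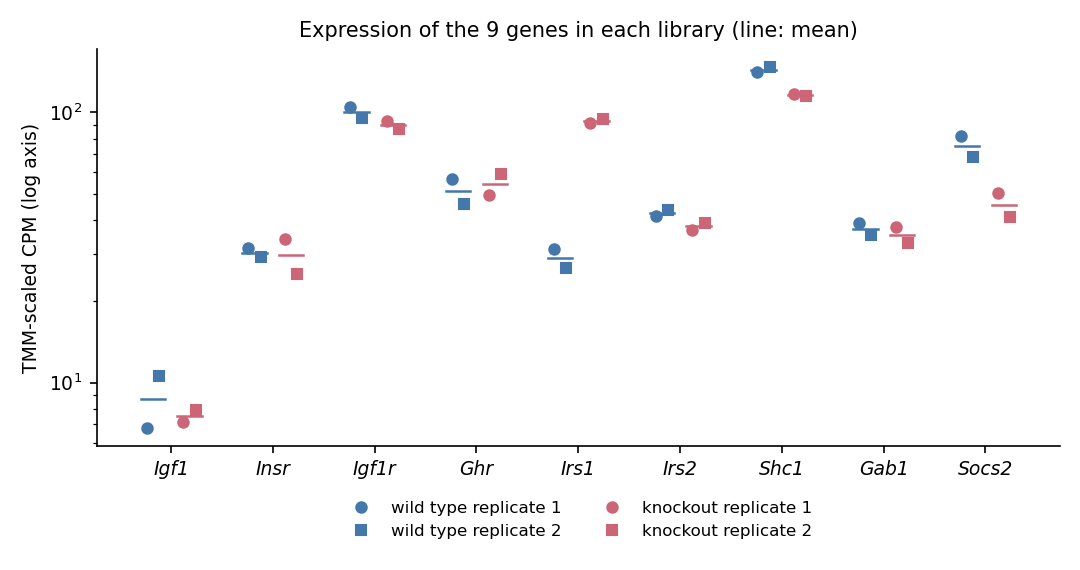
TMM-scaled CPM (vertical log axis) of the 9 genes (horizontal axis) in each library, with wild type in blue, knockout in red, circles for replicate 1, squares for replicate 2 and lines for the mean of 2 libraries. Irs1 moved from 26.6 to 31.1 CPM in wild type up to 91.3 to 94.5 CPM in knockout, and Socs2 from 68.5 to 81.5 down to 40.8 to 50.2 CPM.

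Igf1, the ligand, had the lowest level of the 9 genes. It measured 6.80 and 10.6 CPM in wild type and 7.14 and 7.92 CPM in knockout. Both knockout values lay between the wild type values. The log2 fold change was -0.20 with a 95% interval from -0.74 to 0.33 (SE 0.22, edgeR adjusted p = 0.571). Its sign rested on wild type replicate 2: without that library the log2 fold change was 0.15, and without wild type replicate 1 it was -0.49. Macrophages also make Igf1, and their summed markers, carried by Cd14, were lower in knockout, as given above. Other macrophage markers did not all go that way. Adgre1 and Cd163 had log2 fold changes above 0, and C1qa, C1qb and C1qc had at most 6 counts in a library. The part of macrophages in the Igf1 values was not tested.

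None of the 3 receptor genes passed the test. Insr, the insulin receptor, measured 31.3 and 29.1 CPM in wild type and 34.1 and 25.3 CPM in knockout. The knockout libraries lay on either side of the wild type pair, and the log2 fold change of -0.03 (95% interval -0.38 to 0.33, edgeR adjusted p = 0.928) became 0.19 without knockout replicate 2 and -0.26 without knockout replicate 1. Igf1r, the IGF1 receptor, measured 105 and 95.7 CPM in wild type and 92.8 and 86.6 CPM in knockout. It was lower in both knockout libraries, by a log2 fold change of -0.16 (95% interval -0.35 to 0.03) that did not pass (SE 0.081, edgeR adjusted p = 0.242). Ghr, the growth hormone receptor, measured 56.8 and 45.9 CPM in wild type and 49.5 and 59.3 CPM in knockout, so the groups overlapped (log2 fold change 0.08, 95% interval -0.23 to 0.40, edgeR adjusted p = 0.712). For Igf1r the interval holds no fall beyond -0.35, and for Ghr no rise beyond 0.40, on the log2 scale.

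Igf1r exceeded Insr per length in every library. The ratio of their FPKM values was 2.61 and 2.57 in wild type, against 2.12 and 2.67 in knockout. The groups overlapped in this ratio (exact permutation test, 2-sided, p = 1, where 0.333 is the smallest p that 2 against 2 libraries allow). Ghr has 3 transcripts in the deposited tables, Igf1 has 5, and the deposited length of a gene is weighted over its transcripts in each library. For Ghr this length was 3840 and 3685 bases in wild type and 3528 and 3651 bases in knockout, lower in both knockout libraries, and for Igf1 it was 6486 and 6273 against 6378 and 6510 bases, which overlapped. The length of Shc1 also did not overlap, at 3259 and 3256 bases in wild type and 3271 and 3265 bases in knockout. The lengths of Socs2 and Gab1 overlapped. Differences in length were not tested, and the share of all genes whose lengths do not overlap between the groups was not computed. The Ghr gene encodes the full receptor and, by alternative splicing, a shorter soluble binding protein, and the deposited tables do not give their shares.

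The insulin receptor substrates parted. Irs1 measured 31.1 and 26.6 CPM in wild type and 91.3 and 94.5 CPM in knockout. Every knockout value was well above every wild type value, and the pairs were tight, at 28.9 ± 3.2 and 92.9 ± 2.2 CPM (mean ± SD, n = 2 each). Irs1 rose 3.22-fold, or 1.69 on the log2 scale with a 95% interval from 1.46 to 1.91 (SE 0.094, edgeR adjusted p = 0.00139). Among the 13773 tested genes it ranked 44 by log2 fold change and 9 by p-value. Without wild type replicate 1 its log2 fold change was 1.80 (edgeR adjusted p = 0.0903) and without wild type replicate 2 it was 1.58 (edgeR adjusted p = 0.158), and with either of these left out edgeR called 0 of all genes (3442 and 2587 had an unadjusted p under 0.05). In the same libraries DESeq2 called 4.05% and 3.49% of all genes, and gave Irs1 adjusted p-values of 2.63e-20 and 7.88e-16.

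Irs2 measured 41.4 and 43.5 CPM in wild type and 36.6 and 39.0 CPM in knockout. Both knockout values were the lower ones, at 37.8 ± 1.7 against 42.4 ± 1.5 CPM (n = 2 each). The difference did not pass the test (log2 fold change -0.17, SE 0.079, edgeR adjusted p = 0.219), and its 95% interval from -0.36 to 0.02 does not reach the change of Irs1 in either direction. Irs1 thus rose, whereas Irs2 had no call.

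**Figure D2:**
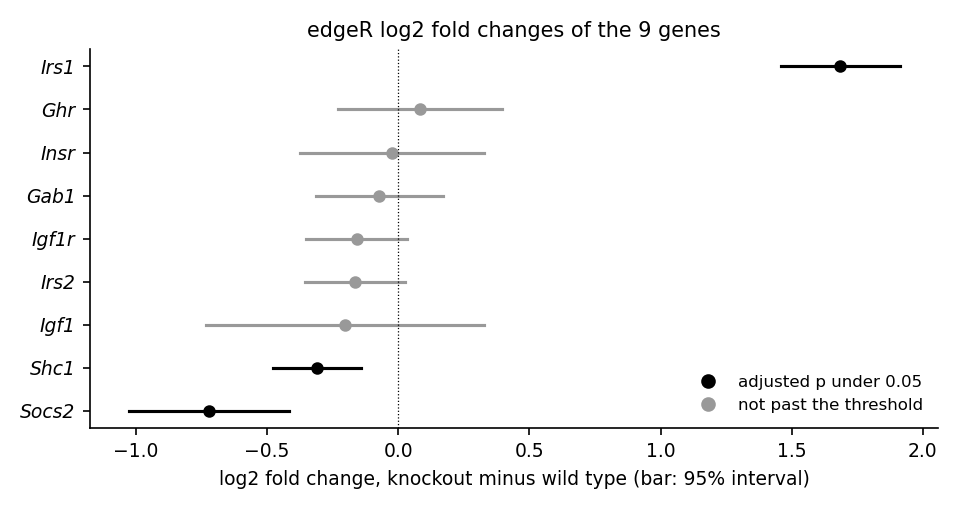
edgeR log2 fold changes (horizontal axis, knockout minus wild type) of the 9 genes, with 95% intervals as bars, in black where the adjusted p was under 0.05 and in grey otherwise. The interval of Irs1, from 1.46 to 1.91, stands apart from the other 8, of which Socs2 and Shc1 lie below 0.

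Set side by side per length, the Irs2 transcript was the more abundant of the pair in wild type and not in knockout. Irs1 had FPKM values of 3.36 and 2.80 in wild type and 9.99 and 10.3 in knockout, and Irs2 had 10.3 and 10.5 in wild type and 9.18 and 9.77 in knockout. Irs1 made up 24.7% and 21.1% of the summed FPKM of both genes in wild type, against 52.1% and 51.3% in knockout. The sum itself was 13.5 ± 0.23 FPKM in wild type and 19.6 ± 0.64 FPKM in knockout (n = 2 each). The log2 ratio of Irs1 over Irs2 was -1.61 and -1.91 in wild type and 0.12 and 0.08 in knockout, a difference of 1.86 between the group means. The groups did not overlap, and an exact permutation test over libraries (2-sided) gave p = 0.333, the smallest that 2 against 2 allow. The share of each gene depends on its deposited length, which was 9163 bases for Irs1 and 4015 bases for Irs2. In the GENCODE M21 annotation the Irs1 transcript has 9144 bases, of which 3693 are coding, and the Irs2 transcript 6323 bases, of which 3963 are coding, so the deposited Irs2 model is close to its coding part. Whether reads from the rest of the Irs2 transcript were counted is not known. With the GENCODE lengths and the same counts, Irs1 made up 34.1% and 29.6% of the sum in wild type and 63.2% and 62.5% in knockout, so the exact shares rest on the length used, while Irs1 stayed below Irs2 in wild type and above it in knockout. The change in the ratio does not depend on these lengths, and it was also 1.86 on CPM.

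**Figure D3:**
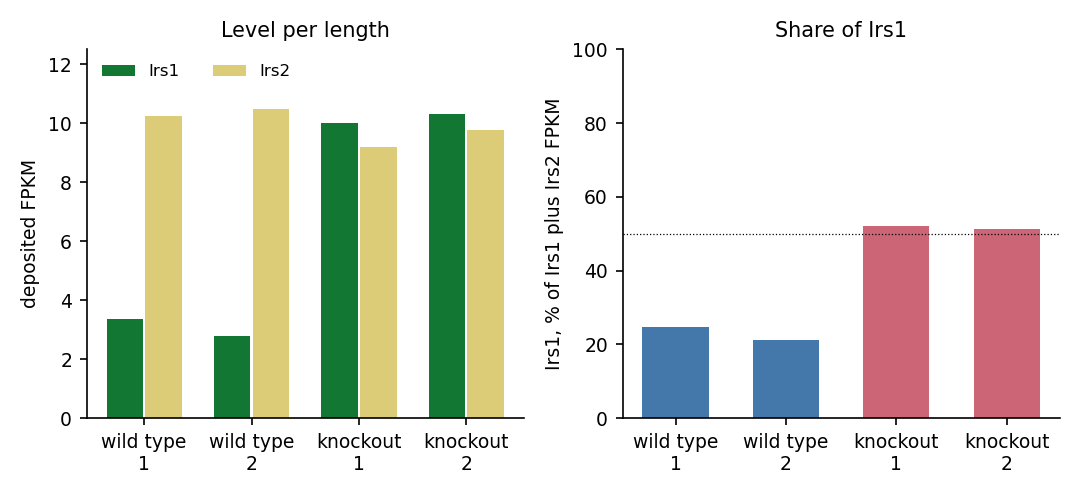
Left, deposited FPKM (vertical axis from 0) of Irs1 (green) and Irs2 (yellow) in each library, and right, Irs1 as a percentage of the summed FPKM of both genes, with wild type in blue, knockout in red and a dotted line at 50%. Irs1 held 21.1% to 24.7% of the sum in wild type and 51.3% to 52.1% in knockout.

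Of the other 2 adaptors Shc1 fell and Gab1 did not pass. Shc1, which couples receptors to Ras, measured 141 and 147 CPM in wild type and 117 and 115 CPM in knockout. The groups were apart and each pair was close, and Shc1 fell 1.24-fold (-0.31 on the log2 scale, SE 0.070, edgeR adjusted p = 0.0431). This call was lost without any 1 of the 4 libraries, in edgeR (adjusted p from 0.122 without knockout replicate 1 to 0.230 without wild type replicate 2) and in DESeq2 (0.259 without knockout replicate 1 to 0.649 without wild type replicate 2). Without knockout replicate 1 or 2, edgeR still called 7.71% and 9.04% of all genes, and DESeq2 5.84% and 6.83%. Gab1, a docking protein that recruits PI3K and the phosphatase Ptpn11, measured 38.8 and 35.1 CPM in wild type and 37.6 and 32.7 CPM in knockout. The groups overlapped (log2 fold change -0.07, 95% interval -0.31 to 0.17, edgeR adjusted p = 0.671).

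Socs2, the feedback inhibitor of growth hormone signalling, measured 81.5 and 68.5 CPM in wild type and 50.2 and 40.8 CPM in knockout. All wild type values exceeded all knockout values, with a wider spread than for Irs1. The means were 75.0 ± 9.2 and 45.5 ± 6.6 CPM (n = 2 each), and Socs2 fell 1.65-fold (-0.72 on the log2 scale, SE 0.13, edgeR adjusted p = 0.0231). Without wild type replicate 1 the log2 fold change was -0.59 (edgeR adjusted p = 0.150, DESeq2 adjusted p = 0.0976) and without wild type replicate 2 it was -0.84 (edgeR adjusted p = 0.198, DESeq2 adjusted p = 0.0022). The knockout values of Igf1, another gene that STAT5 induces in liver, lay within the wild type range. STAT5 activity was not measured, and the cause of the fall in Socs2 was not tested.

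In the authors' deposited table, a DESeq2 comparison of knockout over control on 17529 genes, Irs1 had a log2 fold change of 1.67 and an adjusted p of 3.46e-38, and it ranked 10 from the top by log2 fold change. That table marks 69 genes, 0.394%, as up, and Irs1 was the single gene of the 9 with a mark. By the authors' deposited table, 8.52% of genes had an adjusted p under 0.05, and Socs2 (log2 fold change -0.70, adjusted p = 9.14e-05) and Shc1 (-0.30, adjusted p = 0.021) were among them without a mark, the smallest absolute log2 fold change of a marked gene being 1.001. Irs2 had -0.16 there with an adjusted p of 0.573.

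Per length, the order of the 9 genes in wild type was Shc1 (43.4 ± 0.55 FPKM, mean ± SD, n = 2), Socs2 (34.2 ± 4.6), Ghr (13.4 ± 1.9), Irs2 (10.4 ± 0.17), Igf1r (8.16 ± 0.66), Gab1 (7.37 ± 0.66), Insr (3.15 ± 0.23), Irs1 (3.08 ± 0.40) and Igf1 (1.34 ± 0.42). Igf1r and Gab1 overlapped, as did Insr and Irs1, so their order is not settled, and the other neighbours did not overlap. In knockout the order was Shc1 (35.8 ± 0.36 FPKM), Socs2 (21.1 ± 3.2), Ghr (15.2 ± 1.5), Irs1 (10.2 ± 0.23), Irs2 (9.48 ± 0.42), Igf1r (7.49 ± 0.38), Gab1 (7.19 ± 0.72), Insr (3.18 ± 0.68) and Igf1 (1.17 ± 0.071). Only Igf1r and Gab1 overlapped there. Irs1 thus went from place 8 to place 4, and the remaining 8 genes kept their order among themselves. The place of Irs2 rests on its deposited length: with the GENCODE length it had 6.51 and 6.66 FPKM in wild type and 5.83 and 6.20 FPKM in knockout, below Gab1 in both groups.

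The genes whose profile over the 4 libraries came closest to that of Irs1 were sought among 9639 genes with a mean of at least 5 CPM, by the root mean square difference of centred log2 CPM. The nearest were Lrp4 (difference 0.087), Sorbs2 (0.095), Ogn (0.14), Ptx3 (0.18) and Klhl13 (0.18), which encode a receptor of the LDL receptor family, a cytoskeletal adaptor, a small leucine-rich proteoglycan, a pentraxin and a kelch-like protein. Lrp4 measured 6.01 and 5.07 CPM in wild type and 15.6 and 16.1 CPM in knockout, and Sorbs2 23.5 and 22.3 CPM against 77.8 and 85.5 CPM. All 5 rose in the knockout by edgeR, from 2.55-fold for Klhl13 to 3.87-fold for Ogn, which their choice by likeness to Irs1 favours. The nearest to Irs2 were Zfp518a, Ctdspl2, Pip4k2a, Atg12 and Mob1a, with differences of 0.006 to 0.011 and log2 fold changes of -0.15 to -0.18. None of those 5 passed the test, which their choice by likeness to Irs2 likewise favours.

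**Figure D4:**
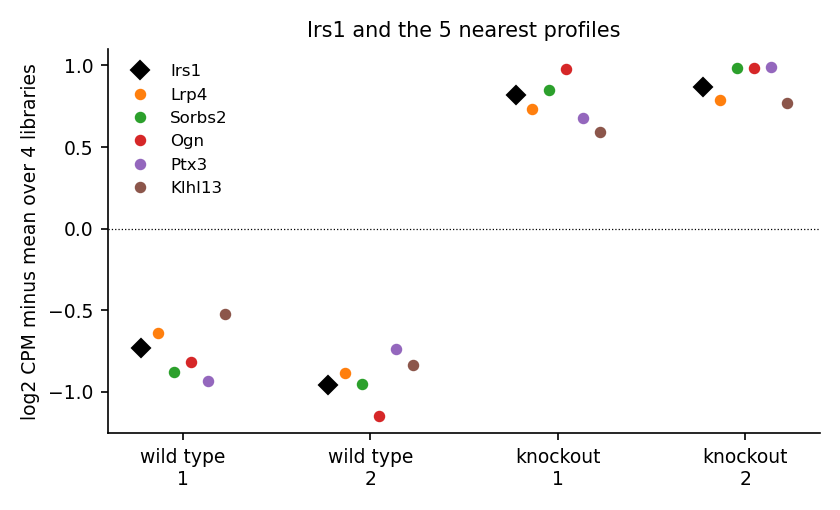
Log2 CPM minus the mean over the 4 libraries (vertical axis) for Irs1 (black diamonds) and the 5 genes with the nearest profile (coloured circles) in each library (horizontal axis). All 6 genes lie below 0 in both wild type libraries and above 0 in both knockout libraries.

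Beyond the 9 genes, 7 lists of the pathway with 101 tested genes in all were read from the same fit. Of these, 4 rose, 10 fell and 87 did not pass, against 3.62% and 5.63% of all tested genes. The median log2 fold change over the 101 genes was -0.06. None of them rose as far as Irs1: their highest log2 fold change was 1.49, that of Irs4, which was near the limit of detection at 5, 4, 12 and 15 counts and did not pass (edgeR adjusted p = 0.124). With replicate 1 or 2 of wild type left out none of the 101 passed in edgeR (34 and 21 at an unadjusted p under 0.05), and DESeq2 then called 2 and 1 as higher and 4 and 3 as lower. In edgeR 8 rose and 7 fell without knockout replicate 1, and 2 rose and 7 fell without knockout replicate 2. Grb14, Socs1, Trib3, Phlpp1, Foxo4 and Fbxo32, described below, passed in both of these fits, and the other called genes lost the call in at least 1 of them.

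Among other ligands and receptors 3 of 7 genes were tested and none passed in edgeR with all libraries (2 at an unadjusted p under 0.05). In that fit 4016 of all 13773 tested genes had an unadjusted p under 0.05. Igf2, the fetal growth factor and by far the more abundant IGF here, measured 1109 and 1251 CPM in wild type and 1353 and 1730 CPM in knockout. It was higher in both knockout libraries without passing with all libraries (log2 fold change 0.39, SE 0.13, edgeR adjusted p = 0.115). For Igf2r, which clears Igf2, the log2 fold change was 0.33 (edgeR adjusted p = 0.0724), and for Prlr, the prolactin receptor, it was 0.04 at under 1 CPM. Without knockout replicate 1 edgeR passed Igf2 (adjusted p = 0.0122) and Igf2r (adjusted p = 0.0319), and without any other library it passed neither. DESeq2 passed Igf2 (adjusted p = 0.0317) and Igf2r (adjusted p = 0.021) with all libraries and without knockout replicate 1, and neither of them without knockout replicate 2 (0.544 and 0.479), wild type replicate 1 (0.509 and 0.378) or wild type replicate 2 (0.109 and 0.414). Per length, Igf2 had 313 FPKM in wild type on average against 1.34 FPKM for Igf1. The insulin genes Ins1 and Ins2 were not listed in any library.

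Of 19 tested other receptor adaptors 1 rose, 2 fell and 16 did not pass, with a median log2 fold change of -0.06. The shares over all tested genes were 3.62% that rose and 5.63% that fell. Dok4, a docking protein of the insulin receptor, measured 11.3 ± 0.62 CPM in wild type, with 16.7 ± 0.65 CPM in knockout libraries, a 1.48-fold rise (n = 2 each; edgeR adjusted p = 0.0303). Its relative Dok5 measured 38.7 ± 1.0 CPM in wild type, with 29.7 ± 1.3 CPM in knockout libraries, a 1.30-fold fall (edgeR adjusted p = 0.0367). Sh2b3, also called Lnk, an adaptor that restrains Jak2, measured 32.7 ± 2.8 CPM in wild type, with 23.3 ± 0.16 CPM in knockout libraries, a 1.40-fold fall (edgeR adjusted p = 0.0283). The 3 called genes thus changed in both directions, each by less than 1.5-fold. Dok5 and Sh2b3 lost the call without any 1 of the 4 libraries, in edgeR (adjusted p from 0.07 to 0.229 for Dok5 and from 0.0558 to 0.184 for Sh2b3) and in DESeq2. Dok4 kept it only in edgeR without knockout replicate 1 (adjusted p = 0.0411).

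Inhibitors of the receptors were the list with the most calls, and most of those were falls. Among 15 tested genes there were 1 rise, 4 falls and 10 without a call (2 rises and 6 falls in DESeq2), and the median log2 fold change was -0.33. Over all tested genes 3.62% rose and 5.63% fell in edgeR, and 5.26% and 7.8% in DESeq2. The list was chosen with earlier results of these data known. Trib3, a pseudokinase that binds AKT, measured 20.4 ± 5.5 CPM in wild type, with 7.87 ± 1.8 CPM in knockout libraries, a 2.59-fold fall (n = 2 each; edgeR adjusted p = 0.0208). Socs1, a relative of Socs2 that blocks JAK kinases, measured 43.2 ± 12 CPM in wild type, with 19.7 ± 0.31 CPM in knockout libraries, a 2.19-fold fall (edgeR adjusted p = 0.0171), and its wild type libraries lay apart at 51.6 and 34.7 CPM. Ptpn1, the phosphatase that removes phosphate from the insulin receptor, and Socs7 fell 1.37-fold and 1.26-fold. In contrast, Grb14, an adaptor that blocks the kinase of the insulin receptor, measured 34.2 ± 1.9 CPM in wild type, with 59.0 ± 8.1 CPM in knockout libraries, a 1.73-fold rise (edgeR adjusted p = 0.0125). The summed macrophage, endothelial and fibroblast markers were lower in the same knockout libraries, as given above, and the part of those cells in these falls was not tested. Cish, a close relative of Socs2, was under 1.1 CPM in every library.

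Downstream, of 30 tested PI3K, AKT, mTOR and FOXO genes 1 rose, 2 fell and 27 did not pass, a share near the 9.25% called over all tested genes, and the median log2 fold change was -0.11. Phlpp1, a phosphatase that acts on AKT, measured 84.1 ± 1.0 CPM in wild type, with 59.5 ± 1.5 CPM in knockout libraries, a 1.41-fold fall (n = 2 each; edgeR adjusted p = 0.0121). Eif4ebp1, a translation inhibitor held in check by mTOR, measured 123 ± 1.8 CPM in wild type, with 93.1 ± 1.6 CPM in knockout libraries, a 1.32-fold fall (edgeR adjusted p = 0.0205). Foxo4 measured 102 ± 1.6 CPM in wild type, with 138 ± 3.2 CPM in knockout libraries, a 1.35-fold rise (edgeR adjusted p = 0.0171). No Ras and ERK gene passed among 12 in edgeR (3 at an unadjusted p under 0.05) or in DESeq2, and the smallest p-values were those of Hras, Araf and Mapk3, with log2 fold changes of 0.18, 0.19 and 0.34. No gene of the growth hormone JAK and STAT list passed among 7 in edgeR (2 at an unadjusted p under 0.05). For both lists, 4016 of all 13773 tested genes had an unadjusted p under 0.05 in the same fit. Jak2, the kinase of Ghr, had a log2 fold change of 0.36 (edgeR adjusted p = 0.0601). DESeq2 passed Jak2 with all libraries (adjusted p = 0.0256) and in none of the 4 fits that left a library out (0.164 to 0.648). Stat3 had a log2 fold change of 0.20 and did not pass.

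FOXO target genes, which FOXO factors switch on when insulin signalling is low, had calls in both directions. Of 15 tested, 1 rose, 2 fell and 12 did not pass (2 rose and 4 fell in DESeq2), with a median log2 fold change of -0.13. The shares over all tested genes were 3.62% that rose and 5.63% that fell in edgeR, and 5.26% and 7.8% in DESeq2. Fbxo32, a ubiquitin ligase subunit, measured 19.4 ± 2.1 CPM in wild type, with 7.97 ± 0.57 CPM in knockout libraries, a 2.43-fold fall (n = 2 each; edgeR adjusted p = 0.0052), and Bcl2l11, a cell death gene, measured 14.0 ± 0.87 CPM in wild type, with 9.69 ± 0.10 CPM in knockout libraries, a 1.44-fold fall. Txnip, a regulator of glucose uptake, measured 56.3 ± 5.5 CPM in wild type, with 75.1 ± 2.6 CPM in knockout libraries, a 1.33-fold rise (edgeR adjusted p = 0.0387). Irs2 and Insr are themselves known FOXO targets in other tissues, and neither passed the test here. Whether FOXO activity differed between the groups was not tested.

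**Figure D5:**
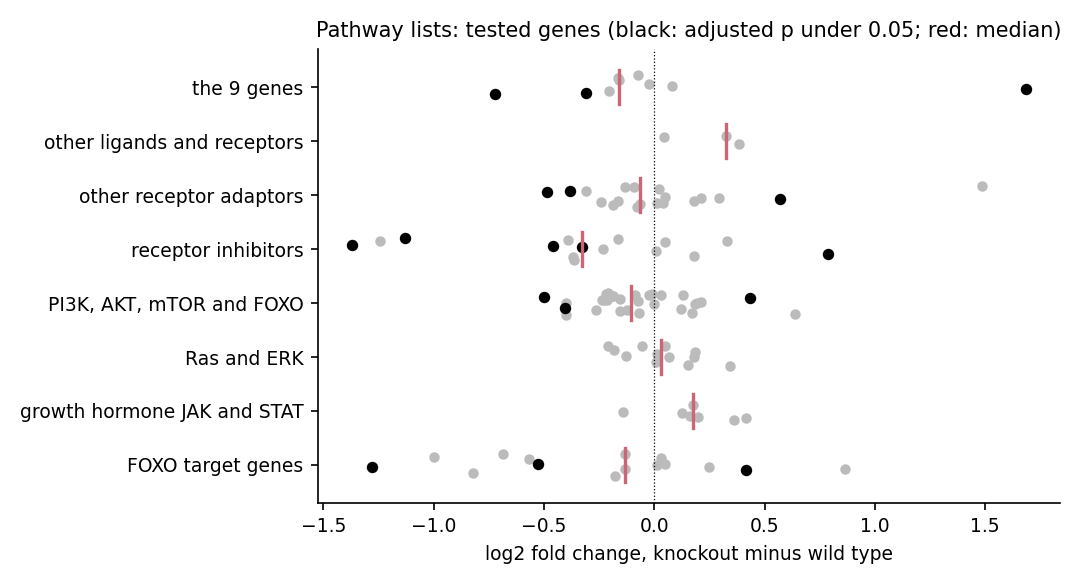
Log2 fold changes (horizontal axis, knockout minus wild type, edgeR) of the tested genes of the 9-gene set and of the 7 pathway lists (vertical axis), with genes past an adjusted p of 0.05 in black, others in grey and the median of each list as a red line; vertical scatter within a list has no meaning. Irs1, at 1.69, lies farthest to the right of all genes shown, and the receptor inhibitors have the lowest median, -0.33.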

How the data were processed

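Bowtie2 2.2.5 and the mouse build mm9 are named in the submitters' processing notes; how reads were counted (tool, annotation, strand) was not given in the sources used. Per the file headers, the authors deposited an expected count, an FPKM value and a weighted gene length for each gene in each library, and 1 DESeq2 comparison. That deposited comparison gives each group's mean signal (close to normalized counts), the log2 fold change and its p-value, raw and adjusted. Depth was 31178248 to 32332044 expected counts per library in the deposited tables. After rounding, expected counts went into edgeR 4.0.16 under R 4.3.3 (TMM, filterByExpr, quasi-likelihood F test, Benjamini-Hochberg adjustment over 13773 genes), with DESeq2 1.42.0 and limma 3.58.1 on log2(FPKM + 1) or log2(FPKM + 0.1) as alternatives. The SE is the absolute log2 fold change divided by the root of F, and 95% intervals use the fit's degrees of freedom. The steps were tested on simulated data. The 9 genes and the lists were chosen with earlier results of these data known. Named genes are the 9 genes, Kdm6a and Kdm6b, the 5 nearest profiles of Irs1 and of Irs2, and up to 3 genes per pathway list with the smallest p-values; 1 of these is not reported here. Irs4, Ptpn1, Socs7, Cish and the single cell type markers were named after their values were seen. Promoters matched by gene number for 7 of the 9 genes. Titles give replicate numbers, but nothing in the labels pairs the libraries. 26 entries named by transcript (0.0271% of counts) were kept apart in the test.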

Additional observations from a re-analysis of the deposited data

How the results depend on the processing

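Irs1 kept its direction in 18 of 18 alternatives, with log2 fold changes of 1.45 to 1.81, and its call in 15. The call was lost in limma on log2(FPKM + 1) with no filter (1.45, adjusted p = 0.0583), where 0 of all genes passed and 4411 had an unadjusted p under 0.05, and in edgeR without either wild type library, where left-out libraries gave 1.58 to 1.80; the lone wild type library is then assumed to vary like the knockout pair. Socs2 and Shc1 kept their direction in 18 of 18 and their call in 11 and 6. The log2 ratio of Irs1 over Irs2 differed between groups by 1.57 with 1 added to each FPKM, against 1.86. With GENCODE transcript lengths, an alternative added after seeing the data, Irs1 made up 31.9% of the Irs1 and Irs2 sum in wild type and 62.8% in knockout, against 22.9% and 51.7%. Among the 9 genes the count that rose was 0 in limma with no filter and 0 to 1 with a library left out, and the count that fell was 0 in edgeR with no low count filter, 0 in limma with either pseudocount or no filter, and 0 to 1 with a library left out. Of the pathway genes, 9 rose in DESeq2, 0 rose and 1 fell in limma with a pseudocount of 0.1, 5 fell in limma with 1, 0 rose and 0 fell in limma with no filter, 5 fell in edgeR with no low count filter, and 0 to 8 rose and 0 to 7 fell in edgeR with a library left out; in DESeq2 with one left out, 1 to 4 rose and 3 to 5 fell (2 and 4 without replicate 1 of wild type, 2 and 5 without replicate 2 of knockout). Over all genes these settings called from 0 to 16.8%. The replicate numbers share a correlation of 0.108 over genes and no stated origin. With the replicate number as a block 11 pathway genes rose and 15 fell, Irs1 had a log2 fold change of 1.69 (adjusted p = 1.01e-05) and the 9 genes had the same 3 calls; Igf2 (adjusted p = 0.02) and Igf2r (adjusted p = 0.032) passed there. The cause of these differences was not tested. DESeq2 with a library left out was added after seeing the data. Genes under 1 CPM, such as Prlr, are limited by depth.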
